A study of Mus musculus with 6 samples.

Results

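The heat shock factors are transcription factors that switch on chaperone genes. The BAG proteins are a family named for a domain known to act on the chaperone HSP70. The members were the rows of the deposited read-count table whose symbol was *Hsf1*, *Hsf2*, *Hsf4* or *Bag1* to *Bag6*. All 9 were found among the 55341 genes of the table, 3 of them heat shock factors and 6 of them BAG genes, and all 9 were among the 16017 genes that passed the filter on low values. They were compared between aortas of 3 knock-out (miRNA-26b-/-) and 3 wild-type (miRNA-26b+/+) libraries.

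M2626, M2627 and M2628 are the libraries of the knock-out and M2629, M2630 and M2631 those of wild type. They were made from the aortic arch and thoracic aorta of mice 8 weeks old on a normal laboratory diet, perfused with saline. The knock-out mice lacked both mature forms of miRNA-26b. Their allele was targeted in 129/Sv embryonic stem cells in intron 4 of the host gene *Ctdsp1*, deleted through loxP sites with tamoxifen-activated CreERT2, and CreERT2 was then removed by breeding. The labels give C57BL/6NCrl for both groups, and whether the wild-type mice were littermates is not given in the sources used here. The vessels are described as coming from mice of each genotype with n = 3, while the labels tie no library to an animal and name no batch, so p-values measure the spread between these libraries. The labels call the samples endothelial cells, but the smooth muscle markers *Acta2*, *Myh11*, *Tagln*, *Cnn1*, *Smtn* and *Lmod1* summed to between 31130 and 42020 CPM (counts per 1000000 counts, scaled for library composition) and the 8 endothelial markers to between 547 and 1832 CPM, as in a whole vessel wall. In such tissue a change in the share of a cell type and a change of RNA per cell cannot be told apart.

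The libraries held 25706728 to 33345037 counts. The targeted gene could not be checked, since *Mir26b* had 20 counts in M2630 and 0 in the other libraries. Its host *Ctdsp1* had a log2 fold change of 0.19 (edgeR unadjusted p = 0.199). *Ctdsp1* had 182 to 201 CPM in the knock-out and 148 to 180 CPM in wild type. Its groups thus did not overlap, as was so for 11.5% of all genes tested. Libraries of the knock-out group differed among themselves. The endothelial markers summed to 547 CPM in M2626 and 615 CPM in M2627 but to 1832 CPM in M2628, against 1337 to 1802 CPM in wild type. All 8 endothelial markers had a log2 fold change below 0, where 48.6% of all genes tested did, and 2 of the 8 passed an unadjusted p-value of 0.05. Markers of Schwann cells, the glia of peripheral nerves, summed to 317 to 470 CPM in the knock-out and 223 to 286 CPM in wild type, and 5 of the 6 passed an unadjusted p-value of 0.05, all higher in the knock-out. The markers of sympathetic neurons summed to 226 CPM in M2627 and 48.7 CPM in M2630, and to 7.98 to 21.97 CPM in the other libraries. Those of skeletal muscle summed to 26.4, 83.3 and 8.404 CPM in M2626, M2627 and M2628 and to 6.50, 11.2 and 2.18 CPM in M2629, M2630 and M2631, and 4 of the 5 (*Tnnt3*, *Mylpf*, *Acta1* and *Myh4*) were higher in the knock-out at an unadjusted p of 0.05. Adventitial fibroblast markers summed to 8045 CPM in M2628 and to 4407 to 5494 CPM in the other libraries. Leukocyte markers summed to 536 CPM in M2628 and to 201 to 384 CPM in the others. Without M2628, 1692 genes passed the unadjusted threshold where 1036 did with all libraries.

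Heat shock factor 1 (HSF1) is held inactive by chaperones in resting cells. When damaged proteins draw the chaperones away it forms trimers, enters the nucleus and binds repeated GAA and TTC units, the heat shock elements, in front of chaperone genes. The BAG domain in its typical form grips the nucleotide-binding part of HSP70 and releases its ADP, so that the client protein is let go. Not every member need act in this way. Other domains of the family lead client proteins to different ends such as the proteasome, autophagy or membrane insertion. In muscle, including that of vessels, BAG3 is known for the disposal of filamins damaged by mechanical load.

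The letters of miRNA-26b are shown first, because they are what the knock-out animals lacked and what a direct target would have to match. The mature sequences in RefSeq (GRCm38.p6), with the seed, bases 2 to 8, in capitals, were as follows.
mmu-miR-26b-5p, chr1:74394324-74394344, plus strand: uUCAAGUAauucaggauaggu
mmu-miR-26b-3p, chr1:74394360-74394381, plus strand: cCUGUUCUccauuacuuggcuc
Of 1679 mature mouse miRNAs compared, mmu-miR-26a-5p also had the seed of the 5p form, and its genes were not deleted. The seed of the 3p form was also that of mmu-miR-26a-2-3p, mmu-miR-6932-3p and mmu-miR-7039-3p.

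For each member, the 3′ UTR with the most bases in the annotation was read for letters that pair with these seeds. For the 5p form the search was for TACTTGAA, TACTTGA and ACTTGAA, and for the 3p form for AGAACAGA, AGAACAG and GAACAGA, each counted once under its longest form. A 5p match was found in 1 of 9 members, *Bag4*, where 18.3% of 21020 genes had 1 or more. *Bag4* had 3 of them, in a 3′ UTR of 3386 bases that was longer than those of 89.6% of genes. Its sites on the minus strand of GRCm38, with the match in capitals, were these.
*Bag4*, chr8:25767789-25767795: ctgacctaaaACTTGAAagggggaaaa
*Bag4*, chr8:25767327-25767333: tccttttaccACTTGAAtatattgcag
*Bag4*, chr8:25764671-25764677: ttgacttttgACTTGAAtttgatttaa
A 3p match was found in 3 of 9 members, *Bag1*, *Bag2* and *Bag4*, where 20.1% of genes had 1 or more. *Bag2* alone had 4, set in a repeated stretch, as the first pair of its sites on the minus strand shows.
*Bag2*, chr1:33746181-33746187: acaccacagtGAACAGAacacccagcc
*Bag2*, chr1:33746136-33746142: accgcagtgtGAACAGAacacccagcc
No match of 7 or 8 letters to either form was found for *Hsf1*, *Hsf2*, *Hsf4*, *Bag3*, *Bag5* or *Bag6*. A match of letters is a description of the sequence and not a measured site.

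None of the 9 members passed an adjusted p-value of 0.05 with edgeR's quasi-likelihood test over the 16017 genes tested, and 1 of the 9, *Bag3*, passed an unadjusted p-value of 0.05, where 6.47% of all genes tested did. *Bag3* was lower in miRNA-26b-/- aorta by 24.6%. Of all genes tested, 1 (0.00624%) passed after adjustment. The median log2 fold change (miRNA-26b-/- minus miRNA-26b+/+) was -0.07 over the members and 0.01 over all genes tested. The CPM of the groups did not overlap for *Bag3*, lower in the knock-out, and for *Bag4*, higher in the knock-out, which is 2 of 9 members where 11.5% of all genes tested had groups that did not overlap (5.88% lower and 5.65% higher in the knock-out). With 3 against 3 libraries the smallest p an exact permutation test can give is 0.1, and *Bag3* and *Bag4* both had it (two-sided).

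**Figure D1:**
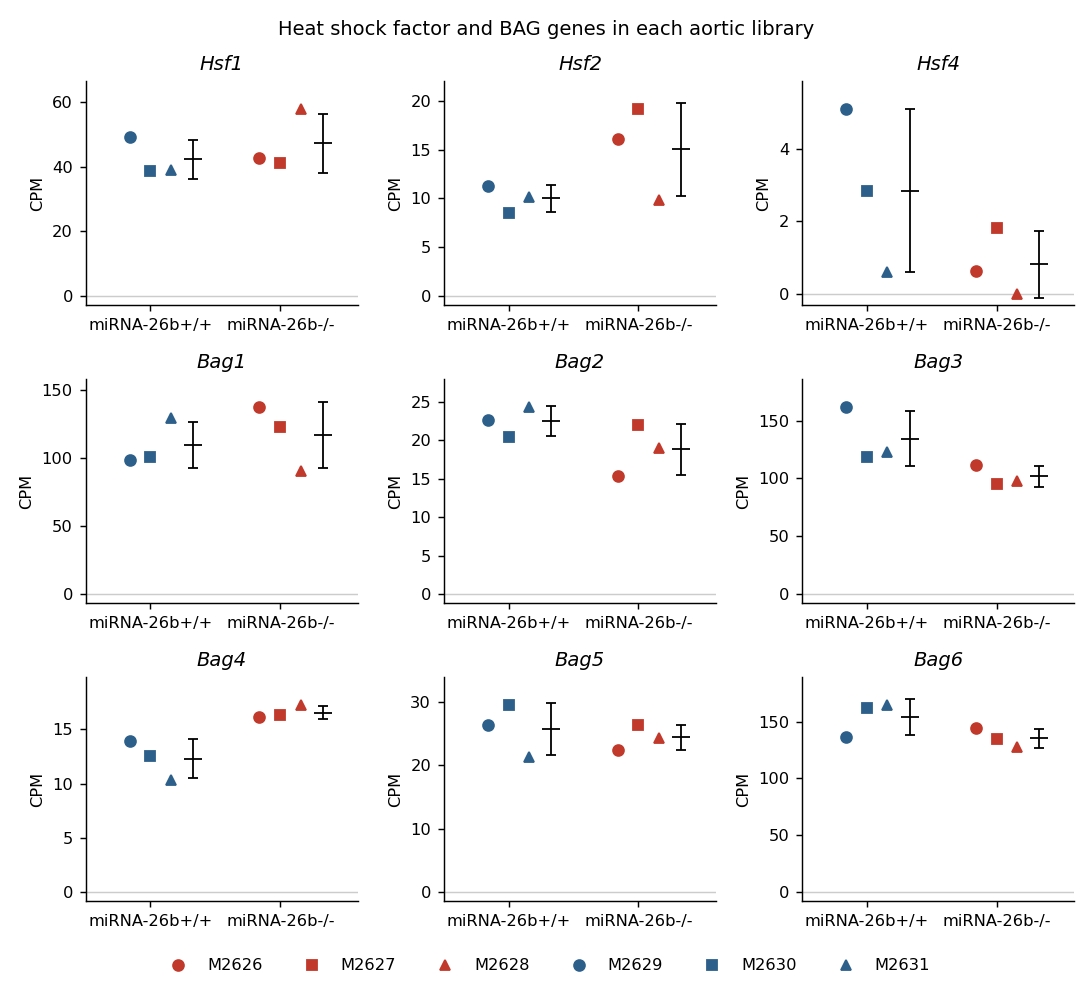
Level of each member in CPM (vertical axes, each from its own scale with 0 marked by a grey line) in the 3 miRNA-26b+/+ (blue) and 3 miRNA-26b-/- (red) libraries. Each point is 1 library and the black bar gives the group mean ± SD. The knock-out points of *Bag3* lie below and those of *Bag4* above all wild-type points, while the groups of the other 7 members overlap.

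*Hsf1* (ENSMUSG00000022556.11, chr15:76477422-76501913, plus strand) encodes the main activator of the heat shock response. It had 42.8, 41.2 and 57.9 CPM in knock-out M2626, M2627 and M2628 and 49.2, 38.8 and 38.9 CPM in wild-type M2629, M2630 and M2631. The highest library of each group stood above the rest, M2628 in the knock-out and M2629 in wild type, and the groups overlapped. The log2 fold change was 0.16 with a 95% confidence interval from -0.31 to 0.62 (SE 0.22, edgeR adjusted p = 0.947). Without M2628 it was -0.01, so that its sign rested on that library. M2628 also had the highest fibroblast and leukocyte marker sums, above, and their part in the level of *Hsf1* was not tested.

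*Hsf2* (ENSMUSG00000019878.8, chr10:57486385-57513135, plus strand) encodes a factor that can join HSF1 in mixed trimers and is known for its part in development and in the germ line. It had 16.1, 19.1 and 9.82 CPM in M2626, M2627 and M2628 and 11.3, 8.53 and 10.2 CPM in M2629, M2630 and M2631. Both knock-out libraries with few endothelial transcripts were above every wild-type library, M2628 was within the wild-type range, and the groups overlapped. The log2 fold change was 0.59 (95% confidence interval -0.19 to 1.37, SE 0.37, edgeR adjusted p = 0.833). Without M2628 it was 0.82, with an unadjusted p of 0.0357 and an edgeR adjusted p of 0.414.

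*Hsf4* (ENSMUSG00000033249.10, chr8:105269801-105275845, plus strand) encodes the heat shock factor best known from the lens of the eye. Its counts were low, at 16, 61 and 0 in M2626, M2627 and M2628 and 156, 78 and 18 in M2629, M2630 and M2631, or 0.625, 1.82 and 0 CPM against 5.09, 2.84 and 0.596 CPM. A count of 0 in M2628 allows up to 0.106 CPM, which covers counting error only. The groups overlapped through M2631, which was below 2 of the 3 knock-out libraries. The log2 fold change was -1.69 with an interval from -3.87 to 0.48 (SE 1.03, edgeR adjusted p = 0.828). It ran from -3.24 without M2627 (unadjusted p = 0.0497) to -0.92 without M2629, and was -2.20 without M2631 (unadjusted p = 0.0409). The spread was 113% of the mean in the knock-out and 79.1% in wild type, against 19.7% and 10.9% from counting alone.

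*Bag3* (ENSMUSG00000030847.8, chr7:128523616-128546981, plus strand) is a BAG gene known to be induced by HSF1. It had 112, 95.3 and 97.7 CPM in M2626, M2627 and M2628 and 162, 119 and 123 CPM in M2629, M2630 and M2631. Every miRNA-26b-/- library was below every miRNA-26b+/+ library, and M2629 stood above the other wild-type libraries. The means were 102 ± 9.02 CPM in the knock-out and 134 ± 23.7 CPM in wild type (SD, n = 3 each), and the spread, 8.87% and 17.6% of the mean, was larger than the 1.84% and 1.59% that counting gives. The log2 fold change was -0.41 (95% confidence interval -0.77 to -0.04, SE 0.17, unadjusted p = 0.0302, edgeR adjusted p = 0.736). With any single library left out it ran from -0.48 to -0.25. The edgeR unadjusted p was 0.175 without M2629, 0.0916 without M2627 and 0.0506 without M2628, and under 0.05 without M2626, M2630 or M2631. Schwann cell markers, above, were higher in every knock-out library than in every wild-type library, and the smooth muscle markers overlapped, at 31130 to 39570 CPM in the knock-out and 34100 to 42020 CPM in wild type. The sums of the endothelial and skeletal muscle markers, above, overlapped between the groups, although 4 of 5 skeletal muscle markers were higher in the knock-out. Cardiac muscle markers summed to 17.5, 293 and 18.3 CPM in M2626, M2627 and M2628 and to 64.1, 266 and 26.7 CPM in M2629, M2630 and M2631. Adipocyte markers summed to 449 to 1642 CPM in the knock-out and 428 to 1176 CPM in wild type. Erythroid markers summed to 85.7 to 930 CPM in the knock-out and 355 to 634 CPM in wild type. The part of these cell types in the level of *Bag3* was not tested.

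*Bag4* (ENSMUSG00000037316.9, chr8:25764538-25785287, minus strand) encodes the silencer of death domains, which binds the TNF receptor TNFR1. It had 16.1, 16.3 and 17.2 CPM in M2626, M2627 and M2628 and 13.9, 12.5 and 10.4 CPM in M2629, M2630 and M2631. The 3 knock-out libraries were close to each other, with a spread of 3.69% of the mean against 4.56% from counting, and all were above wild type. The means were 16.5 ± 0.609 CPM and 12.3 ± 1.80 CPM (SD, n = 3 each). The log2 fold change was 0.43 (95% confidence interval -0.24 to 1.10, SE 0.31, unadjusted p = 0.19, edgeR adjusted p = 0.863) and stayed between 0.31 and 0.54 with any 1 library left out. Of the exon bases of *Bag4*, 14.8% lay opposite the lincRNA Gm17484 on the other strand, and since the libraries did not keep strand, its reads cannot be told apart from those of *Bag4* there. This was the only member with 5p seed matches, shown above, and with the SE pooled across genes its difference was within the error.

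*Bag1*, *Bag2*, *Bag5* and *Bag6* had overlapping groups and differences within the error. *Bag1* (ENSMUSG00000028416.12, chr4:40936398-40948294, minus strand), whose product carries a ubiquitin-like domain and binds BCL2, had 138, 123 and 90.4 CPM in M2626, M2627 and M2628 and 98.9, 101 and 129 CPM in M2629, M2630 and M2631. M2626 was highest and M2628, of the same group, lowest, and the log2 fold change was 0.09 (95% confidence interval -0.31 to 0.49, edgeR adjusted p = 0.969).

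*Bag6* (ENSMUSG00000024392.17, chr17:35135178-35147322, plus strand), part of the complex that hands tail-anchored proteins to the membrane, had 144, 134 and 127 CPM in the knock-out and 136, 162 and 165 CPM in wild type. M2629 was the wild-type library within the knock-out range, and the log2 fold change was -0.19 (95% confidence interval -0.51 to 0.13, edgeR adjusted p = 0.886).

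*Bag2* (ENSMUSG00000042215.8, chr1:33745484-33757795, minus strand), which restrains the ubiquitin ligase CHIP, is on the chromosome of *Mir26b*, 40.6 Mb from it. It had 15.4, 22.1 and 19.0 CPM in the knock-out and 22.7, 20.5 and 24.4 CPM in wild type, lowest in M2626 and highest in M2631. Its log2 fold change was -0.24 (95% confidence interval -0.82 to 0.33, edgeR adjusted p = 0.932), and 4.28% of its exon bases overlapped the unclassified transcript Gm37905 on the other strand. *Bag5* (ENSMUSG00000049792.6, chr12:111709488-111713257, minus strand), an inhibitor of the ubiquitin ligase parkin with several BAG domains, had 22.5, 26.4 and 24.4 CPM against 26.4, 29.6 and 21.4 CPM. All 3 knock-out libraries lay within the wild-type range, and the log2 fold change was -0.07 (95% confidence interval -0.60 to 0.47, edgeR adjusted p = 0.989). Leaving out 1 library turned the small differences of *Bag1* (without M2626) and *Bag5* (without M2630).

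**Figure D2:**
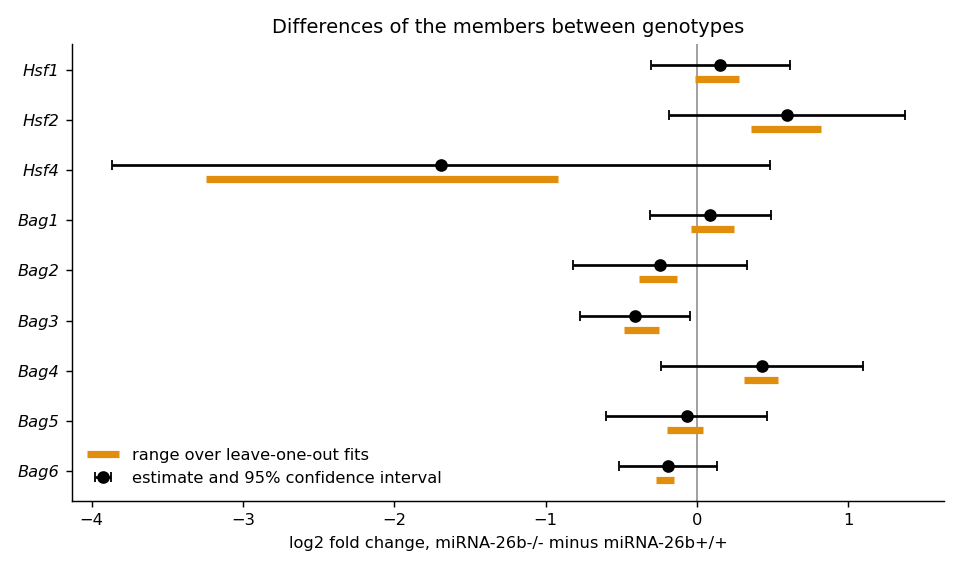
Difference of each member as a log2 fold change (horizontal axis, miRNA-26b-/- minus miRNA-26b+/+), with the estimate and its 95% confidence interval in black and the range over the fits that leave out 1 library each in orange. The interval of *Bag3*, -0.77 to -0.04, is the one that does not reach 0, and that of *Hsf4*, from -3.87 to 0.48, is the widest.

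To set the members beside each other, counts were divided by exon length and scaled to the same total in every library (TPM), and the values below are levels per length over all 6 libraries. *Bag1* was highest at 270 ± 38.9 TPM, followed by *Bag3* at 149 ± 33.7, *Bag6* at 75.3 ± 8.75, *Bag5* at 32.4 ± 4.14, *Bag2* at 21.9 ± 3.93, *Hsf1* at 20.5 ± 3.94, *Bag4* at 6.61 ± 1.16, *Hsf2* at 4.18 ± 1.25 and *Hsf4* at 3.40 ± 3.61 TPM (SD over 6 libraries of both groups). The ranges over the libraries did not meet between neighbours from *Bag1* down to *Bag2*, though those of *Bag5* and *Bag2* came as close as 26.9 and 26.6 TPM. They overlapped between *Bag2* and *Hsf1*, between *Bag4* and *Hsf2* and between *Hsf2* and *Hsf4*, and *Bag4* was above *Hsf2* in 6 of 6 libraries. *Bag1* was above 96.9% of the genes tested and *Hsf4* above 19.6%.

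The place of *Hsf1* and *Hsf2* depended on the length used. Their annotated exons merge to 7099 and 9606 bases, where their longest coding transcripts have 2104 and 2604. With the transcript length *Hsf1* moved from rank 6 to rank 4, at 53.1 TPM, and *Hsf2* from rank 8 to rank 7, at 11.9 TPM. *Bag1*, *Bag3* and *Bag6* kept ranks 1, 2 and 3 with both lengths. *Hsf1* had 2.92 to 7.97 times the level per length of *Hsf2* in miRNA-26b-/- and 5.16 to 6.16 times in miRNA-26b+/+, on merged exons, with both ends of the wider range in the knock-out (M2627 and M2628).

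**Figure D3:**
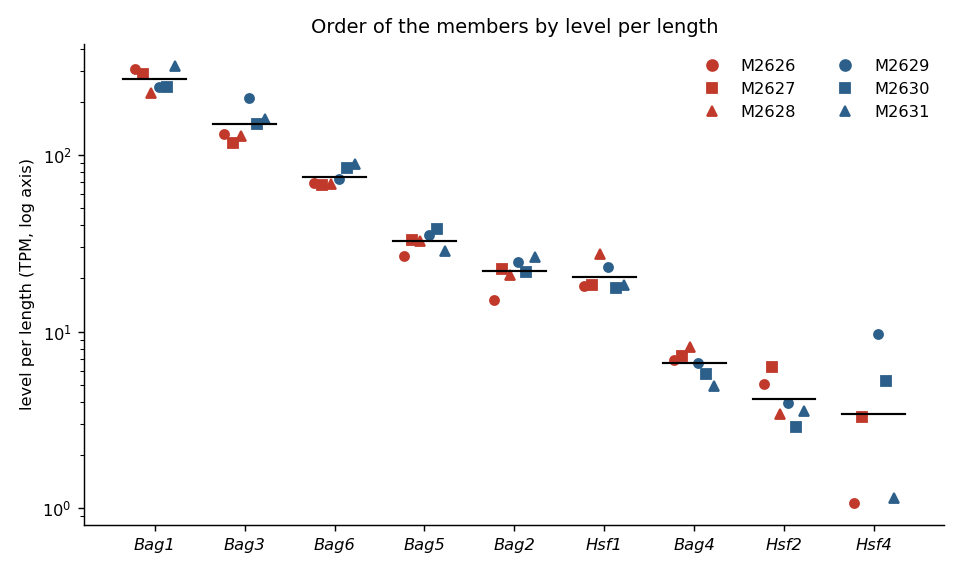
Level per length in TPM (vertical log axis) of the members, ordered by their mean (black line) over 6 libraries, with 1 point a library in the colours of the genotypes (blue miRNA-26b+/+, red miRNA-26b-/-). *Bag1*, *Bag3* and *Bag6* stand clear of the others, and *Hsf4*, which was at 0 in M2628 and has no point there, spreads widest.

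The BAG genes together made 483 to 555 TPM in miRNA-26b-/- and 540 to 629 TPM in miRNA-26b+/+, counting every BAG member, whatever its product does to HSP70. *Bag3* was 21.9 to 26.5% of that sum in the knock-out and 25.5 to 35.4% in wild type, with the top value in M2629. The cytosolic HSP70 genes (*Hspa1a*, *Hspa1b*, *Hspa1l*, *Hspa2* and *Hspa8*) summed to 638 to 1170 TPM in miRNA-26b-/- and 1132 to 1547 TPM in miRNA-26b+/+. For every 100 TPM of HSP70 the BAG genes thus had 77.0, 83.9 and 41.3 TPM in M2626, M2627 and M2628 and 38.4, 42.4 and 55.6 TPM in M2629, M2630 and M2631. M2626 and M2627 were high and M2628 was within the wild-type range, so the groups overlapped. Reads of *Hspa1a* and *Hspa1b*, which are near-identical, may have been split between them or lost.

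The genes around the members were taken from 7 lists. Of the 74 genes listed, each counted once, 69 were tested, of which 14 were lower and 1 higher in miRNA-26b-/- at an unadjusted p of 0.05 and none passed the adjusted threshold with edgeR's quasi-likelihood test. With DESeq2, 6 of the HSF1 target genes below did. Among all genes tested 3.07% were lower and 3.40% higher at that threshold. The lists were drawn up with results on heat shock genes of these libraries known, so their counts are no independent evidence of a direction.

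Genes that HSF1 is known to induce made the longest list, and by number it had the most lower genes. Of its 24 genes, 11 were lower at an unadjusted p of 0.05 and none was higher. A log2 fold change below 0 was found for 21 of the 24, where 48.6% of all genes tested had one. The list's median was -0.37 against 0.01 over all genes tested, and that of the 5 cytosolic HSP70 genes was -0.64. The 11 lower genes were *Hspa4l*, *Hspb1*, *Stip1*, *Hspa8*, *Hspd1*, *Hsph1*, *Hsp90aa1*, *Hsp90ab1*, *Fkbp4*, *Ahsa1* and *Serpinh1*. Their log2 fold changes ran from -1.04 (*Hspa4l*, an HSP110-type exchange factor, edgeR adjusted p = 0.11) to -0.28 (*Serpinh1*, the collagen chaperone HSP47, edgeR adjusted p = 0.748). The classic heat-inducible genes *Hspa1a* and *Hspa1b* did not pass, with log2 fold changes of -0.71 and -0.64 and edgeR adjusted p-values of 0.813 and 0.887. *Hspa1b* had 45.4, 47.0 and 187 CPM in M2626, M2627 and M2628 and 266, 118 and 51.8 CPM in M2629, M2630 and M2631. M2629 was highest for *Hspa1a*, *Hspa1b* and *Bag3* alike, and M2628 was high for both HSP70 genes but not for *Bag3*.

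The level of *Hsf1* itself differed by 0.16 on the log2 scale, within the error, as given above. The regulators and relatives of the factors numbered 12, of which 8 were tested. *Hsf3*, *Hsf5*, *Hsf2bp* and *Hsbp1l1* did not pass the filter on low values, and *Hsf5* had 0 CPM in all 6 libraries. Of the 8, *Fkbp4*, a co-chaperone of HSP90 counted above, was lower (log2 fold change -0.36, unadjusted p = 0.0366, edgeR adjusted p = 0.744), and the others, among them *Hsbp1*, the HSF1 binding protein, at 0.13, did not pass.

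The other nucleotide exchange factors of HSP70, which do the same step as the BAG domain with unrelated folds, numbered 8, all tested. Lower at an unadjusted p of 0.05 were 4, *Hspa4l* (-1.04), *Hspbp1* (-0.71), *Hsph1* (-0.65) and *Hyou1* (-0.49), the last of the endoplasmic reticulum. *Hspa4*, *Sil1*, *Grpel1* and *Grpel2* had log2 fold changes from -0.10 to 0.08. Of the cytosolic HSP70 genes, 1 of 5 was lower, *Hspa8* (-0.66, edgeR unadjusted p = 0.000517), the constitutive HSP70. *Hspa4l*, *Hsph1* and *Hspa8* were already counted above among the lower HSF1 target genes.

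Among 17 partners of BAG3 in chaperone-assisted autophagy 1 was lower, *Flnc*, which encodes the muscle filamin (log2 fold change -0.41, unadjusted p = 0.0156, edgeR adjusted p = 0.736). It had 269, 270 and 339 CPM in M2626, M2627 and M2628 and 359, 359 and 447 CPM in M2629, M2630 and M2631, with M2628 the knock-out library nearest to wild type. The skeletal muscle markers, above, were higher in the knock-out where *Flnc* was lower, and their part in its level was not tested. *Hspb8*, the small heat shock protein that binds BAG3, had a log2 fold change of -0.18 (unadjusted p = 0.2), and the list's median was -0.06. Of 7 tested genes of the BAG6 pathway 1 was higher, *Asna1*, the ATPase that carries tail-anchored proteins (0.52, unadjusted p = 0.036, edgeR adjusted p = 0.741). None of the 8 partners of BAG1, BAG2, BAG4 and BAG5 passed. *Bcl2*, the inhibitor of cell death that BAG1 binds, had a log2 fold change of 0.38 (unadjusted p = 0.0976).

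**Figure D4:**
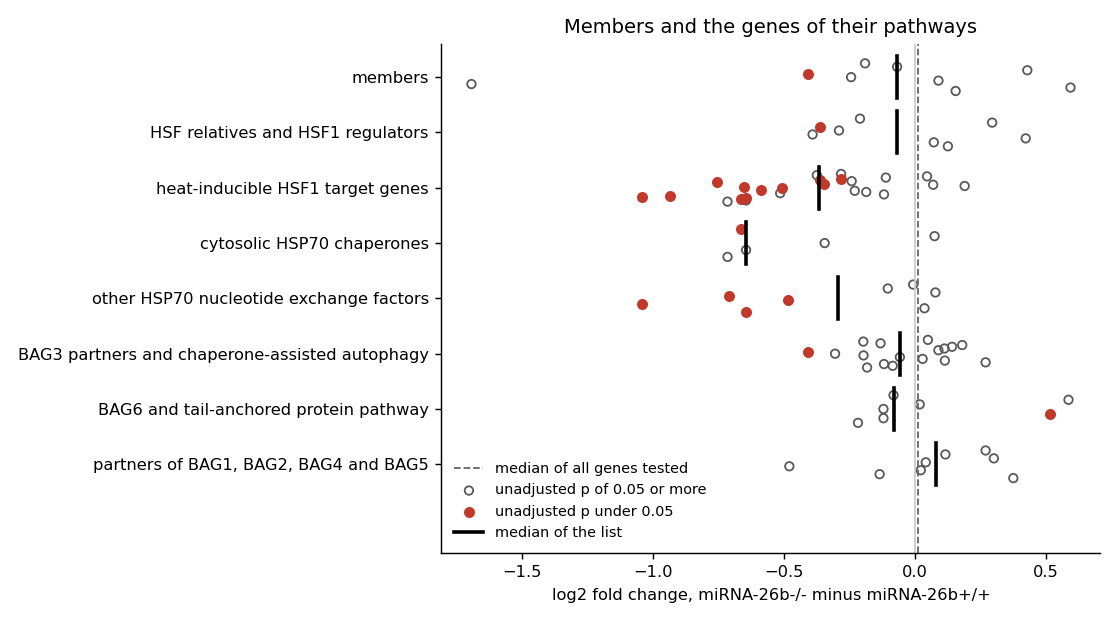
Log2 fold change (horizontal axis, miRNA-26b-/- minus miRNA-26b+/+) of the members and of each tested gene of 7 lists (rows), filled where the unadjusted p was under 0.05. Thick lines are list medians and the dashed line the median of all genes tested, 0.01. The 11 filled points of the HSF1 target genes all lie below 0.

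Across the 6 libraries, log2(CPM + 1) of *Bag3* had a Pearson r of 0.96 with *Hsph1* and 0.83 with *Hsp90aa1*, and r was above 0 with 21 of the 24 HSF1 target genes (median 0.63). For *Hsf1* it was above 0 with 9 of the 24 (median -0.17), with 0.69 for *Hspa1b* and -0.94 for *Ubb*, and for *Hsf2* with 5 of the 24 (median -0.56). The points are 6 libraries of 2 genotypes that share a scaling, so these values describe the libraries and carry no test. No share of all genes with r above 0 was set beside these counts. Over the 36 pairs of members r ran from -0.88 (*Bag4* with *Bag6*) to 0.67 (*Hsf4* with *Bag5*, and *Hsf4* with *Bag3*) with a median of -0.11.

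Of 9768 genes with a mean of at least 10 CPM, those most like *Bag3* were *Sost* (r = 0.995), *Samd4* (0.98) and *Hif1an* (0.97). *Sost*, the gene of the secreted WNT inhibitor sclerostin, had 1605, 1415 and 1453 CPM in the knock-out and 2013, 1675 and 1732 CPM in wild type, highest in M2629 as *Bag3* was. Those most like *Hsf1* were *Ccdc66* (0.98), *Sntb2* (0.98) and *Plekha1* (0.97), each highest in M2628. All were picked by their r, so the peaks shared with *Bag3* and *Hsf1* follow from the choice and carry no test.

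**Figure D5:**
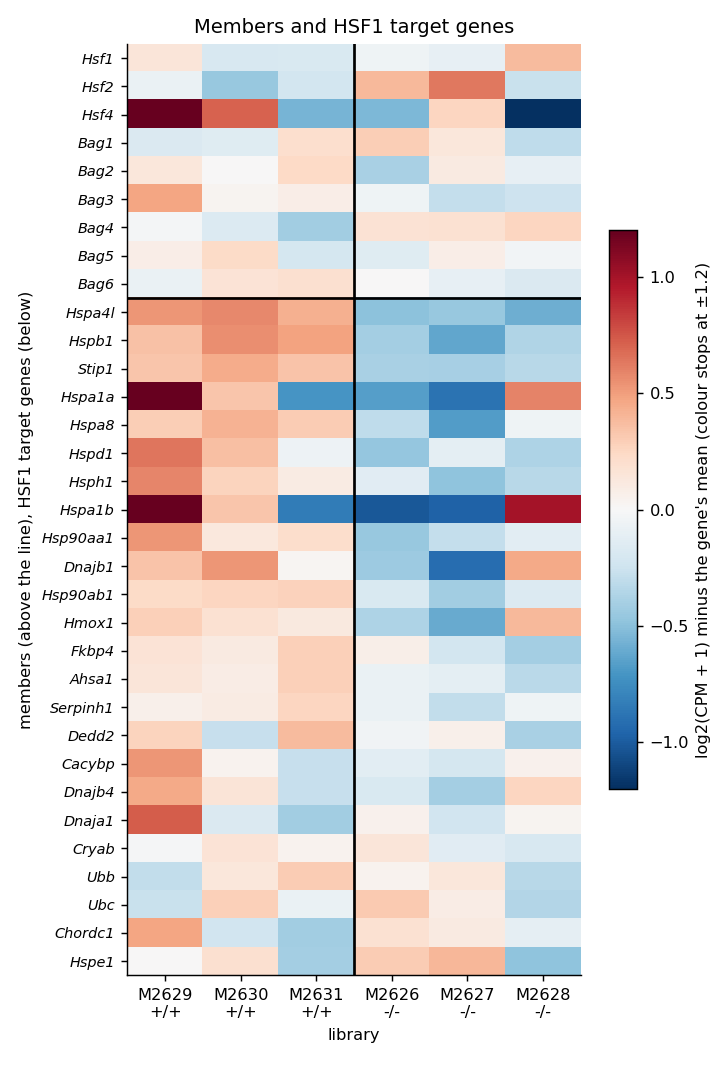
Log2(CPM + 1) minus the gene's mean over the libraries (colour, which stops at ±1.2) for the members and the 24 HSF1 target genes in 3 wild-type (+/+) and 3 knock-out (-/-) libraries (columns). The upper target genes, ordered by log2 fold change, are mostly red in wild type and blue in the knock-out, while *Hspa1a* and *Hspa1b* are red in M2629, M2630 and M2628, and the rows of the members differ from each other.

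Heat shock elements were looked for in RefSeq promoter windows (250 bases before to 50 after a transcription start, GRCm38.p6), which were at hand for 6 of the 9 members. The letters GAANNTTC and TTCNNGAA, each its own reverse complement, stand for 2 units, and GAANNTTCNNGAA and TTCNNGAANNTTC for 3, and a 3-unit match contains both 2-unit ones. Of 32851 promoter windows 15.1% held 2 units and 0.603% held 3. Among the members *Bag3* alone had a 2-unit match and none had 3, while 10 of 18 HSF1 target genes with a window had 2 units and 4 had 3. These are counts of genes with a match in any of their windows, and some genes had several, so they are not on the scale of the shares of windows. The windows of *Hspd1* and *Hspe1* overlapped and held the same 3-unit matches. Those of *Hspa1a* and *Hspa1b* had the same 2-unit match with the same letters around it. The match of *Bag3* began 42 bases after the start. The match ended on the last base of the window, so a further unit behind it could not be seen. It is set beside those of *Hspb1* and *Hsph1*, with the matched letters in capitals, since *Hspb1* has the same 8 letters and *Hsph1* the pattern over the libraries most like that of *Bag3* among the targets.
*Bag3*, chr7:128523625-128523632, plus strand: tgggaccaGAAGTTTC
*Hspb1*, chr5:135887802-135887809, plus strand: caacaagaGAAGTTTCcagatggg
*Hsph1*, chr5:149636288-149636300, minus strand: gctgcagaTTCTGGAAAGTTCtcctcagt
The 250 bases before the *Bag3* start, chr7:128523333-128523582 on the plus strand, had 3 GAA or TTC triplets (capitals), all GAA and none in a paired arrangement.
*Bag3* upstream: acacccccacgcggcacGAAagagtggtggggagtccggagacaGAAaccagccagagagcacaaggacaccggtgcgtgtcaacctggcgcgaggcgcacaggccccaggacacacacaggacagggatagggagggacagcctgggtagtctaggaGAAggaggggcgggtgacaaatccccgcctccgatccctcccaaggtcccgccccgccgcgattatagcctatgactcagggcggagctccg
Elements with other letters or farther away would not be seen in this search, and binding of HSF1 was not measured.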

How the data were processed

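RNA of the 6 libraries was sequenced on an Illumina HiSeq from an unstranded TruSeq v2 preparation. Per the file headers, the authors aligned reads to GRCm38 and counted them per gene symbol with featureCounts 1.6.4 on GENCODE M21, letting a read count for every gene it overlapped, and the study's methods name STAR as aligner. The deposited values are whole counts, and a second deposited table holds log2 CPM, used as an alternative. Its columns of fold changes, mean levels, p-values and FDR and its 6 columns repeating the counts were not used. The gene length in bases came with the counts.

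Genes with at least 2 counts and over 1 CPM in at least 2 libraries were tested with edgeR 4.0.16 (quasi-likelihood, TMM scaling, prior count 0.125) in R 4.3.3, with Benjamini-Hochberg adjustment over 16017 genes and no covariate. TMM factors ran from 0.982 to 1.015. The fit was tested on simulated counts. DESeq2 1.42.0, limma 3.58.1, other scalings, filters and prior counts, and leaving out each library were alternatives. Named were the members, the genes of each list with an unadjusted p under 0.05 (else the 2 with the smallest p, of which 1 is not reported here), and the 3 genes most like *Hsf1* and *Bag3*. Other genes of the lists are given as examples chosen after their values were seen. The members and lists were chosen with earlier results of these data known.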

Additional observations from a re-analysis of the deposited data

How the results depend on the processing

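No paired analysis was possible because the labels give no replicate numbers, and the headings of the log2 CPM columns number M2627 and M2628 alike and tie no number to a litter, batch or day. The count of members past the unadjusted threshold was 1 (*Bag3*) with all 11 alternatives of tool, scaling, filter and prior count, and 0 to 2 with 1 library left out, 0 without M2629, 2 without M2631 (*Bag3* and *Hsf4*), and 1 without M2627 (*Hsf4*) and without M2628 (*Hsf2*), where *Bag3* did not pass. The adjusted p of *Bag3* ran from 0.463 to 0.984 over its 17 alternatives. With 1 library left out the log2 fold change of *Hsf1* ran from -0.014 (without M2628) to 0.28, that of *Bag1* from -0.039 (without M2626) to 0.24 and that of *Bag5* from -0.20 to 0.043 (without M2630), so that their signs turned. Counts of list genes past the threshold moved as follows. HSF1 target genes, 11 with the main test, gave 8 with the likelihood ratio test, 10 with library size as the only scaling and 12 with limma voom. HSF1 regulators gave 2 with limma voom, robust shrinkage and limma trend and 0 with the likelihood ratio test, BAG3 partners 3 with limma voom and 2 with edgeR's earlier quasi-likelihood method, and the BAG6 pathway 0 with DESeq2. With 1 library left out the counts ran from 0 to 1 (HSF1 regulators), 8 to 13 (HSF1 target genes), 1 to 3 (cytosolic HSP70), 2 to 4 (other exchange factors), 0 to 3 (BAG3 partners), 0 to 2 (BAG6 pathway) and 0 to 2 (partners of the other BAG proteins). The cause was not tested. Across all genes 1 passed the adjusted threshold with the main test, 57 with DESeq2 and 82 without M2628, and no member was among them. Of the HSF1 target genes 6 passed it with DESeq2, 3 with the likelihood ratio test, 1 each with limma voom and robust shrinkage and 4 without M2628. Of the other exchange factors, which share genes with that list, 2 passed it with DESeq2 and 1 each without M2628 and by the likelihood ratio test, and of cytosolic HSP70 1 each with DESeq2 and without M2628. With CPM in place of level per length the order began *Bag6*, *Bag3*, *Bag1*. The transcript length as an alternative was chosen after seeing the data. For *Hsf4*, at 0 to 156 counts, the spread between libraries was above that of counting.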
